A study of Homo sapiens with 15 samples.

Results

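The genes described here are 36 very long human genes with large introns, taken from a list of names. Their RefSeq spans on GRCh38 run from 257 kb to 2060 kb with a median of 702 kb. All but RAPGEF2 span more than 300 kb, and 7 span more than 1000 kb. Of the 36, 35 have at least 1 row among the 14296 genes of the 22Rv1 table, and 33 have one among the 14176 genes of the LNCaP table. The tables hold rows of a gene under its plain name and rows with the suffix .primary added. No source used here says what the suffix means, so rows of either kind were kept apart and are called plain and .primary rows. A .primary row was present for 28 of the 36 genes in each line. FHIT, MACROD2, MAGI2, RAD51B, FOXP1, AUTS2, ATXN1 and RAPGEF2 have no .primary row in either table, and MACROD2 has no row of any kind.

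RNA was sequenced after immunoprecipitation (RIP-seq) from formaldehyde-fixed cells of 2 human prostate cancer lines, each an established line. The 22Rv1 set holds 2 Brg1, 2 Sfpq, 3 IgG and 2 Input libraries, where IgG is an antibody of no given target and Input is RNA taken without any antibody. The LNCaP set holds 2 Brg1, 2 IgG and 2 Input libraries. The labels name no genotype change or drug treatment, and nothing says that libraries of a group came from separate cultures. A p-value here thus rests on the spread between these libraries, which may be technical. For Brg1 and Sfpq the main tests largely pooled that spread over rows.

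A long gene is mostly intron, and RNA polymerase takes longer to cross it than a short one, so unspliced nuclear RNA of such genes carries much sequence that the finished mRNA lacks. Several of the genes listed, such as FHIT and WWOX, lie at common fragile sites, where chromosomes tend to break under replication stress. Brg1 is encoded by SMARCA4 and is the motor subunit of SWI/SNF complexes, which move nucleosomes. Sfpq is a nuclear RNA-binding protein of paraspeckles that takes part in splicing and in the transcription of long genes. The comparisons below ask whether either antibody favoured the long genes' rows over the other .primary rows.

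Depth differed widely. The 22Rv1 Brg1, Sfpq and input libraries held 7139669 to 47871438 reads and the LNCaP Brg1 and input libraries 6367908 to 7506724. The IgG libraries held 490879 to 4424105 reads in 22Rv1 and only 22184 and 46297 in LNCaP. Levels are given as RPM, reads per 1000000 reads of the library. As for the antibody targets' own RNA, the plain row of SMARCA4 had a log2 change of 5.55 between Brg1 and input in 22Rv1 and of 5.74 in LNCaP, and that of SFPQ had one of 0.79 between Sfpq and input. The .primary row of SFPQ went the other way, at -1.22, and the plain row of SMARCA4 was at 0.69 in Sfpq against input. Rows of the luminal epithelial genes KRT8 and KRT18 were present in both tables, and KLK3 and FOLH1 had rows in LNCaP only. Of markers of other cells, PTPRC, CD3E, COL1A2 and PECAM1 had no row in either table, while COL1A1 stood at 17.6 and 20 RPM in the 22Rv1 inputs and at 19.8 and 19.2 in the LNCaP inputs, and VWF at 16.9 and 17.1 in the latter. A bulk library cannot tell fewer cells with an RNA from less of that RNA per cell.

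In 22Rv1 the .primary rows of the long genes were higher in Brg1 than in input almost throughout. With limma and a Benjamini-Hochberg adjusted p-value under 0.05, 27 of the 28 rose and 0 fell, where 51.4% of all .primary rows tested were called higher and 9.76% lower. At an unadjusted p under 0.05 the limma counts were also 27 and 0, and edgeR and DESeq2 each called 28 higher and 0 lower. Their median log2 fold change was 1.44, a 2.71-fold higher share, against 0.52 for the 11658 other .primary rows. The medians thus differed by 0.91 ± 0.04 (SD over the Brg1 libraries, n = 2). In all 28 rows both Brg1 libraries lay above both inputs, as did 63.2% of all .primary rows. All 28 passed the minimum mean of 10 reads.

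**Figure D1:**
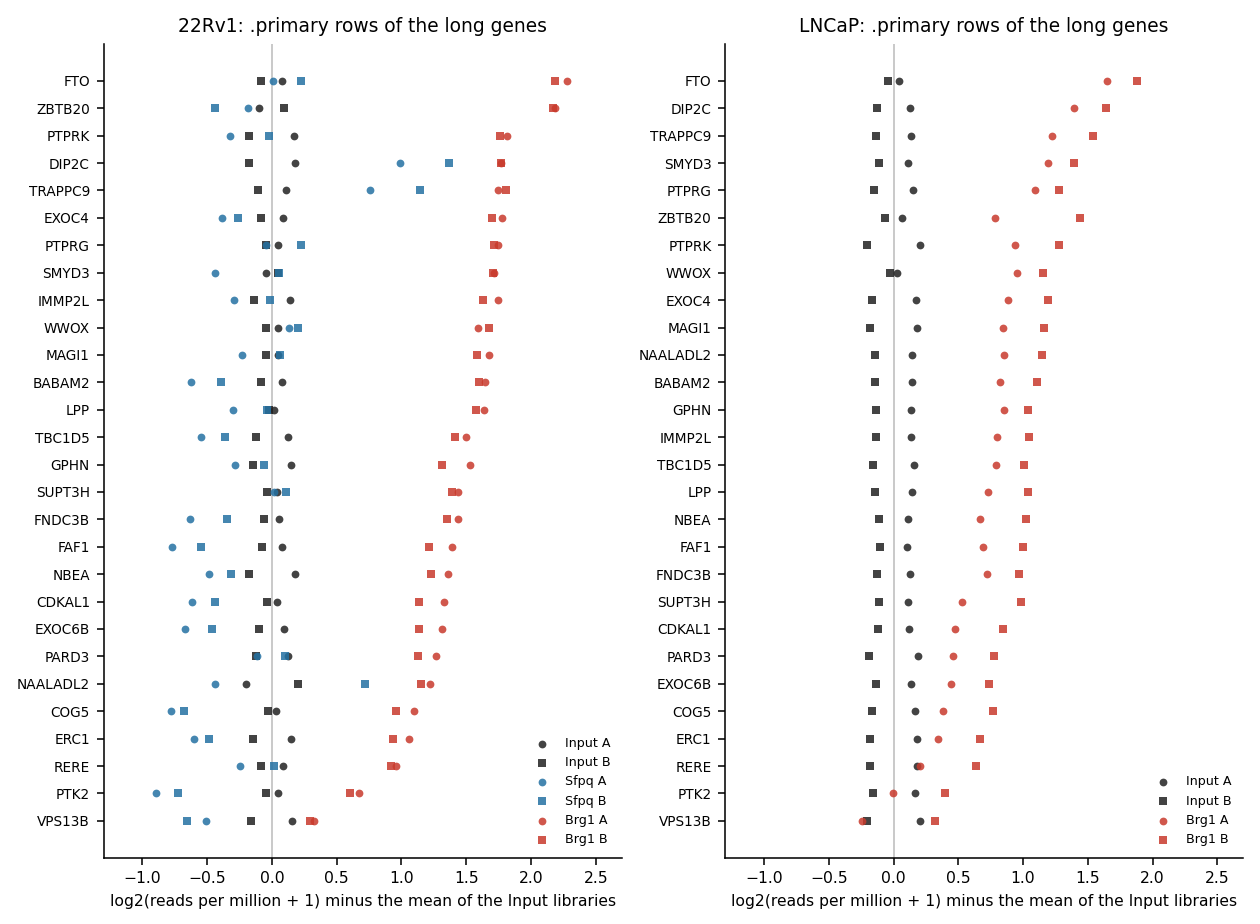
Level of the .primary row of each long gene in every library, as log2(RPM + 1) minus the mean of the 2 Input libraries of the line; circles are replicate A and squares replicate B. In 22Rv1 the Brg1 points lie above both inputs for all 28 genes, and VPS13B and PTK2 are the lowest genes in both lines.

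The enzymes held the row with the highest change. FTO (chr16:53703963-54121941), which removes methyl groups from adenosine in RNA, stood at 419 and 394 RPM in the Brg1 libraries, 90.7 and 80.9 in the inputs, 86.0 and 100 in Sfpq and 236, 89.6 and 175 in IgG. Both Brg1 libraries lay above every other 22Rv1 library, and the IgG libraries ranged from the input level to well above it. Brg1 exceeded input 4.70-fold (log2 2.23, SE 0.14, limma adjusted p = 1.71e-08). WWOX (chr16:78099654-79212667), an oxidoreductase and tumour suppressor, had 250 and 266 in Brg1 against 85.0 and 79.8 in input, 90.1 and 94.8 in Sfpq and 113, 207 and 75.4 in IgG. Its Brg1 levels were again above all others, 3.11-fold over input (log2 1.64, SE 0.13, limma adjusted p = 7.73e-08). DIP2C (chr10:274201-689668) had 773 and 774 in Brg1 and 255 and 200 in input, a 3.42-fold difference (limma adjusted p = 2.38e-07). Its IgG libraries held 863, 841 and 460, so Brg1 and IgG overlapped for this gene. All 8 tested rows of the enzymes and other genes rose, with log2 changes from 1.18 to 2.23. The lowest of them was NAALADL2, a peptidase relative with few reads, at 9.26 and 8.77 RPM in Brg1 and 2.84 and 4.05 in input.

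Among the nuclear proteins 5 of 5 rose, with a median log2 change of 1.62. ZBTB20 (chr3:114314500-115147288), a zinc finger repressor of transcription, went from 24.3 and 27.9 RPM in input to 122 and 121 in Brg1. That is 4.54-fold (log2 2.18, SE 0.15, limma adjusted p = 3.43e-08), with the Brg1 libraries apart from all others; Sfpq held 22.8 and 18.9 and IgG 79.1, 91.9 and 8.15. SMYD3, a lysine methyltransferase, BABAM2, a subunit of a BRCA1 complex, and SUPT3H rose by log2 1.71, 1.62 and 1.41. RERE (chr1:8352404-8817640), a corepressor of the atrophin family, had the smallest rise of the group, from 355 and 315 in input to 652 and 632 in Brg1 (log2 0.94, SE 0.14, limma adjusted p = 3.61e-05).

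Of the adhesion and polarity genes 7 of 7 rose. PTPRK (chr6:127968785-128520599), a receptor tyrosine phosphatase, stood at 393 and 378 in Brg1 and at 125 and 98.1 in input, 3.45-fold (log2 1.79, SE 0.15, limma adjusted p = 1.32e-07). IgG held 258, 300 and 134 and Sfpq 88.4 and 109, so that IgG lay between Brg1 and input. PTPRG, a phosphatase of the same class, the scaffold MAGI1 and the focal adhesion protein LPP rose by log2 1.73, 1.63 and 1.61. PTK2 (chr8:140657900-141002079), the focal adhesion kinase, rose least, with 420 and 400 in Brg1 and 272 and 255 in input (log2 0.64, SE 0.13, limma adjusted p = 0.00060).

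The membrane traffic genes held the 1 row that did not pass. VPS13B (chr8:99013274-99877580), a lipid transfer protein of the Golgi, had 67.1 and 65.9 RPM in Brg1, 59.8 and 47.8 in input and 92.7, 170 and 77.4 in IgG. Both Brg1 libraries were above both inputs but below all 3 IgG libraries, and the difference from input was log2 0.31 (SE 0.15, limma adjusted p = 0.082). The other 7 rose, TRAPPC9 of a Golgi tethering complex by log2 1.77 and EXOC4 of the exocyst by 1.74. ERC1 (chr12:989959-1495933), a scaffold at sites of vesicle fusion, had 278 and 255 in Brg1 and 147 and 120 in input (log2 1.0, SE 0.14, limma adjusted p = 1.70e-05).

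These calls depend on which libraries share the estimate of spread and on the scale. With the IgG libraries in the same limma fit, 0 of the 28 rows passed, at the same median, and 21 were higher at an unadjusted p under 0.05. That fit called hardly any other .primary row either, with 0.0515% higher and 0% lower. Scaled to the total of .primary reads, which lowers the median of all rows by 0.80, 22 rose and 1, VPS13B, fell, against 19.4% and 38% of the other .primary rows. On the authors' deposited scale 13 rose and 0 fell, against 11.2% and 4.69% of the others.

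The rise followed gene span in other genes as well. Among other .primary rows matched to RefSeq, the median log2 change in Brg1 against input in 22Rv1 was -0.11 under 10 kb, 0.11 from 10 to 30 kb, 0.45 from 30 to 100 kb, 1.07 from 100 to 300 kb, 1.36 from 300 to 1000 kb and 1.45 over 1000 kb. The 641 other genes over 300 kb had a median of 1.37, and 96.9% of them were called higher, so the listed genes stood at the level of other genes of their span. Across 10442 other rows Spearman's rho between span and log2 change was 0.508. Rows are not independent, and span also went with the input level (rho 0.372). Among the 28 listed rows themselves rho was 0.165, and VPS13B, at 864 kb, had a smaller change than RERE at 465 kb. Of a second list of long genes, with 28 rows tested, 27 rose with a median of 1.39, led by NFIA (2.09), PRKCE (1.98) and PDE4D (1.91). Of 14 .primary rows of compact, highly expressed genes such as RPL3 and PKM, 1 rose and 4 fell, with a median of -0.45. Both lists were chosen with earlier results of these data known. Their rows are among the other .primary rows, so they are no separate support for the trend with span.

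**Figure D2:**
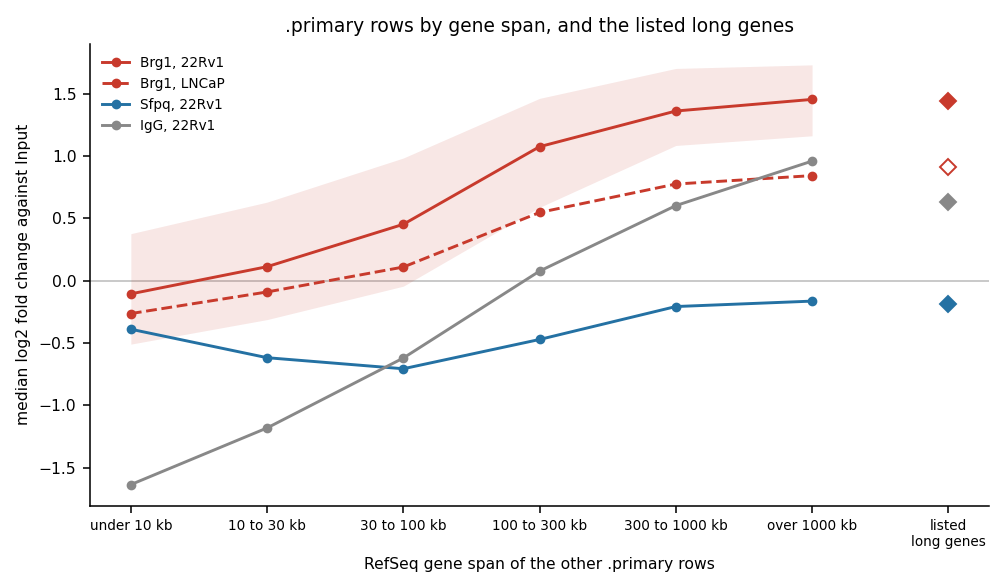
Median log2 fold change against Input of the other .primary rows by RefSeq gene span, with lines for the comparisons, and the median of the listed long genes as diamonds at the right (open for LNCaP); the shaded band is the interquartile range for Brg1 in 22Rv1. Brg1 in 22Rv1 goes from -0.11 under 10 kb to 1.45 over 1000 kb, IgG in 22Rv1 also rises with span, and Sfpq stays below 0 in every bin.

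Non-specific IgG showed a change with span too. In 22Rv1 the median log2 change of IgG against input was -1.63 for other genes under 10 kb and 0.60 for those of 300 to 1000 kb. The listed rows had a median of 0.63 against -0.63 for the other .primary rows, a difference of 1.26 ± 0.88 (SD over the IgG libraries, n = 3), with a far wider spread between libraries than for Brg1. Its size depends on the method, at 0.76 with edgeR, 0.80 with DESeq2 and 0.54 on the deposited scale. The other rows' median was 0.48 with edgeR and 0.46 with DESeq2. Summed .primary reads of genes under 10 kb held 0.76 of their input share of .primary reads. With limma 1 of 28 rose and 0 fell, where 0.685% of all .primary rows were called higher and 8.64% lower. The 1 was DIP2C (log2 1.62, SE 0.33, limma adjusted p = 0.016), whose IgG libraries held the values given above. At an unadjusted p under 0.05 the counts were 8 and 0, edgeR called 1 higher and 0 lower, and DESeq2 5 and 0. Without IgG library C, which has 490879 reads, 16 rose, without library B 2 did, and without input A or without input B 0 did. The rows of TBC1D5, IMMP2L and BABAM2 followed, with log2 changes of 1.15, 1.12 and 1.03, and those of NAALADL2, RERE and SUPT3H were lowest at -0.90, -0.43 and -0.07. None of these 6 passed. In 8 of the 28 rows all 3 IgG libraries lay above both inputs, as did 9.15% of all .primary rows. Among plain rows 0 rose by limma (2 at an unadjusted p under 0.05, 0 by edgeR and 3 by DESeq2) and 1, FHIT, fell by log2 2.97, where 0.0553% of plain rows were called higher and 8.85% lower; ATXN1 and MAGI2 had the highest values (1.37 and 1.26) and DIP2C and CDKAL1 the lowest (-3.18 and -3.12). On the deposited scale all 28 .primary rows fell in IgG against input, as did 11611 of 11659 others, so the direction turns with the scale.

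Brg1 was also above IgG for most of the listed genes in 22Rv1. In 19 of the 28 rows both Brg1 libraries exceeded all 3 IgG libraries, where 34.2% of all .primary rows did. In 1 row, VPS13B, both were below, and 2.87% of all rows were. In the other 8 rows, DIP2C, TBC1D5, FAF1, EXOC6B, PARD3, PTK2, COG5 and SMYD3, the libraries overlapped. Over the whole list, the .primary reads of the long genes made up 2.05% and 2.02% of all .primary reads in the Brg1 libraries. They made up 1.33% and 1.29% in the inputs, 1.73%, 1.55% and 1.32% in IgG, and 1.47% and 1.44% in Sfpq. Only the Brg1 libraries exceeded 2% in this line, a mean 1.55-fold that of input, against 1.17-fold for IgG and 1.11-fold for Sfpq. Other genes over 300 kb went from 10.4% ± 0.06 (SD, n = 2) in input to 17.1% ± 0.16 (SD, n = 2) in Brg1, 1.65-fold, and to 14.3% ± 2.54 (SD, n = 3) in IgG.

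**Figure D3:**
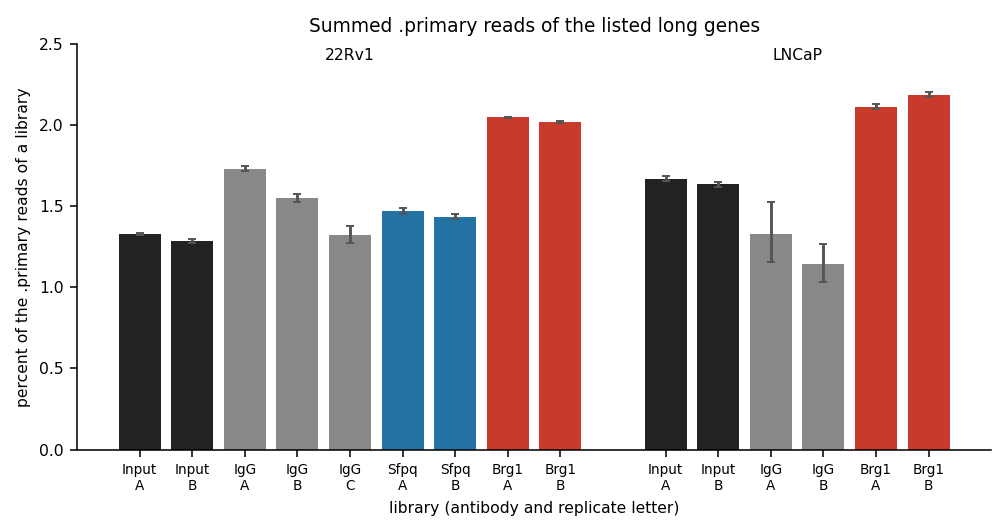
Percent of the .primary reads of each library that fall on the .primary rows of the listed long genes; error bars are 95% Wilson intervals, which cover counting error only. Brg1 libraries are the highest in both lines, at 2.05% and 2.02% in 22Rv1 and 2.11% and 2.19% in LNCaP.

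Sfpq gave another picture for the same rows. Of the 28, 2 rose over input and 11 fell with limma, and 15 did not pass, where 11.8% of all .primary rows were called higher and 50.7% lower. Both Sfpq libraries lay below both inputs in 14 of the 28 rows and above them in 3, against 62.7% and 16.9% of all .primary rows. Their median log2 change was -0.18, above the -0.52 of the other rows by 0.33 ± 0.09 (SD over the Sfpq libraries, n = 2). Among other genes the median first fell and then rose with span, from -0.39 under 10 kb through -0.71 at 30 to 100 kb to -0.16 over 1000 kb (rho 0.064), and the 641 other genes over 300 kb had a median of -0.20. DIP2C held 450 and 583 RPM in Sfpq against 255 and 200 in input (log2 1.18, SE 0.16, limma adjusted p = 1.9e-05). TRAPPC9 (chr8:139727725-140458579) held 297 and 389 against 189 and 163 (log2 0.95, SE 0.15, limma adjusted p = 7.8e-05), with 590 and 617 in Brg1 and 444, 360 and 230 in IgG. In both genes Sfpq lay above input and Brg1 above Sfpq, and IgG was above input too.

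The largest falls in Sfpq were in adhesion, traffic and protein turnover genes. PTK2 had 141 and 159 against 272 and 255 in input, 0.571 of the input level (log2 -0.81, SE 0.13, limma adjusted p = 9.6e-05). COG5 (chr7:107201372-107563920), of a Golgi complex, had 77.6 and 83.2 against 137 and 131 (log2 -0.73, limma adjusted p = 0.00021). FAF1 (chr1:50437028-50960267), an adaptor in protein degradation, had 215 and 251 against 389 and 348 (log2 -0.66, limma adjusted p = 0.00099). VPS13B had 37.3 and 33.5 against 59.8 and 47.8 (log2 -0.59, limma adjusted p = 0.0036). In these 4 genes both Sfpq libraries were below both inputs. Of the 8 membrane traffic genes 6 fell and 1 rose, of the 7 adhesion genes 2 fell, of the 5 nuclear protein genes 1 fell, and of the 8 others 2 fell and 1 rose. WWOX was not called, at log2 0.16 (limma adjusted p = 0.29). Of the second long list, itself part of the other .primary rows, 2 rose and 13 fell of 28. Without input library A 5 of the listed rows passed, and with IgG in the fit 0 did, with 2 higher and 0 lower at an unadjusted p under 0.05. Of the other .primary rows the fit with IgG called 0% higher and 0.00858% lower. Scaled to .primary reads, 5 rose and 3 fell, against 16.3% and 34.6% of the other .primary rows, and with median-of-ratios factors the members' median turned from -0.18 to 0.03.

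Set directly against each other in 22Rv1, Brg1 exceeded Sfpq in 28 of 28 rows by limma, and both Brg1 libraries lay above both Sfpq libraries in each, where 72.8% of all .primary rows were called higher and 7.99% lower, and 78.6% lay above and 10.1% below. The median difference was log2 1.74 against 1.09 for other rows, 0.65 ± 0.05 apart (SD over the Brg1 libraries, n = 2). This SD leaves out the spread of the Sfpq libraries, which was 0.09 for Sfpq against input. It was widest in ZBTB20 (log2 2.49, SE 0.15, limma adjusted p = 1.77e-09), BABAM2 (2.13), FTO (2.12) and EXOC4 (2.06). BABAM2 (chr2:27888709-28338901) had 580 and 564 in Brg1 and 120 and 141 in Sfpq. EXOC4 (chr7:133253078-134100951) had 994 and 939 in Brg1 and 221 and 241 in Sfpq. It was narrowest in DIP2C (0.59), TRAPPC9 (0.83), VPS13B (0.89) and NAALADL2 (1.05). The other genes over 300 kb had a median of 1.63. With IgG in the fit 7 of the 28 rows passed, all higher, where 2.73% of the other .primary rows were called higher and 0.0943% lower. Scaled to .primary reads 21 rose and 1, DIP2C, fell, against 30.1% and 27.1% of the other .primary rows.

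The plain rows of the same genes moved otherwise. Of 33 plain rows in 22Rv1, 2 rose and 12 fell in Brg1 against input by limma, where 2.43% of all plain rows were called higher and 74.3% lower. These counts were 5 and 6 with TMM factors, 0 and 26 scaled to .primary reads and 0 and 5 on the deposited scale. With IgG in the fit they were 0 and 0, also at an unadjusted p under 0.05. RAD51B (chr14:67819779-68683096), a recombination protein, had 39.0 and 38.7 RPM in Brg1 and 19.8 and 18.6 in input (log2 0.98). MAGI2 (chr7:78017055-79453667), a membrane scaffold, had 14.1 and 11.6 against 7.35 and 8.29 (log2 0.65, but -0.10 when scaled to .primary reads). Both of these genes have no .primary row. IgG held 65.8, 1.14 and 16.3 for RAD51B and 6.1, 67.4 and 18.3 for MAGI2, so Brg1 and IgG overlapped in both. TBC1D5 (chr3:17157162-17742631), which acts on the small GTPase Rab7, fell from 43.8 and 44.4 to 17.8 and 14.5 (log2 -1.40), and PTPRK fell by log2 0.95. In Sfpq 22 of the 33 plain rows rose and 1 fell, where 38.4% of plain rows were called higher and 20.3% lower. On the deposited scale 1 rose and 1 fell, and with IgG in the fit 0 and 0 did by limma (5 and 1 at an unadjusted p under 0.05). ZBTB20 went from 12.4 and 19.0 in input to 53.8 and 63.5 in Sfpq (log2 1.86), and FNDC3B (chr3:172039578-172401669) from 25.9 and 28.7 to 86.8 and 85.1 (log2 1.62). The 1 fall was FHIT (chr3:59747277-61251452), a dinucleoside hydrolase with only a plain row. It stood at 8.71 and 11 in input, 8.75 and 12.1 in Brg1, 4.2 and 2.31 in Sfpq and 0.678, 0.571 and 0 in IgG. Its Sfpq level was log2 1.38 below input, and the Brg1 libraries overlapped the inputs. Against each other, Brg1 exceeded Sfpq in 3 plain rows and was lower in 22, where 4.97% and 70.7% of plain rows were; FHIT (1.44) and RAD51B (1.0, but -0.04 when scaled to .primary reads) were highest and TBC1D5 (-2.45) and RERE (-2.15) lowest. The plain row of WWOX held 14.0 and 19.4 in Brg1, 12.2 and 13.9 in input and 14.3 and 12.0 in Sfpq, and was called in none of these comparisons.

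Reads of the same gene on its 2 rows can be set against each other within a library, which no scaling of the library changes. The listed genes with both rows had a median of 83.6% and 80.5% of their reads on the .primary row in the 22Rv1 inputs. The median was 94.4% and 93.5% for Brg1 and 67.0% and 72.3% for Sfpq. It was 92.9%, 91.9% and 81.7% for IgG libraries A, B and C. IgG libraries A and B were thus also above both inputs and close below Brg1, and IgG library C lay between the inputs. The ratio in IgG was not tested. The ratio of .primary to plain reads rose in Brg1 against input for 25 of 26 genes and fell for 0 by limma, where 64.5% of all genes with both rows were called higher and 0.788% lower. The median log2 change of the ratio was 1.63, and 1.15 in other genes. It was largest in TBC1D5, where 95.8% and 96.4% of reads in Brg1 and 78.2% and 74.9% in input were on the .primary row, and VPS13B did not pass, with 49.3% and 47.6% against 46.5% and 38.9%. In Sfpq the ratio fell for 16 of 26 genes and rose for 1, TRAPPC9, where 55.9% of genes were called lower and 9.13% higher, and its median of -0.94 was close to the -0.97 of other genes. The log2 change of the ratio was lowest in ZBTB20, with 29.8% and 22.9% on the .primary row in Sfpq against 66.2% and 59.4% in input. Between Brg1 and Sfpq the ratio was higher in Brg1 for 26 of 26, against 81.6% of all genes, with 2.39% lower. With the IgG libraries in the fit 0 genes passed by limma in each of these 3 comparisons, and at an unadjusted p under 0.05 the ratio was higher for 5, lower for 3 and higher for 14 genes, in that order.

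**Figure D4:**
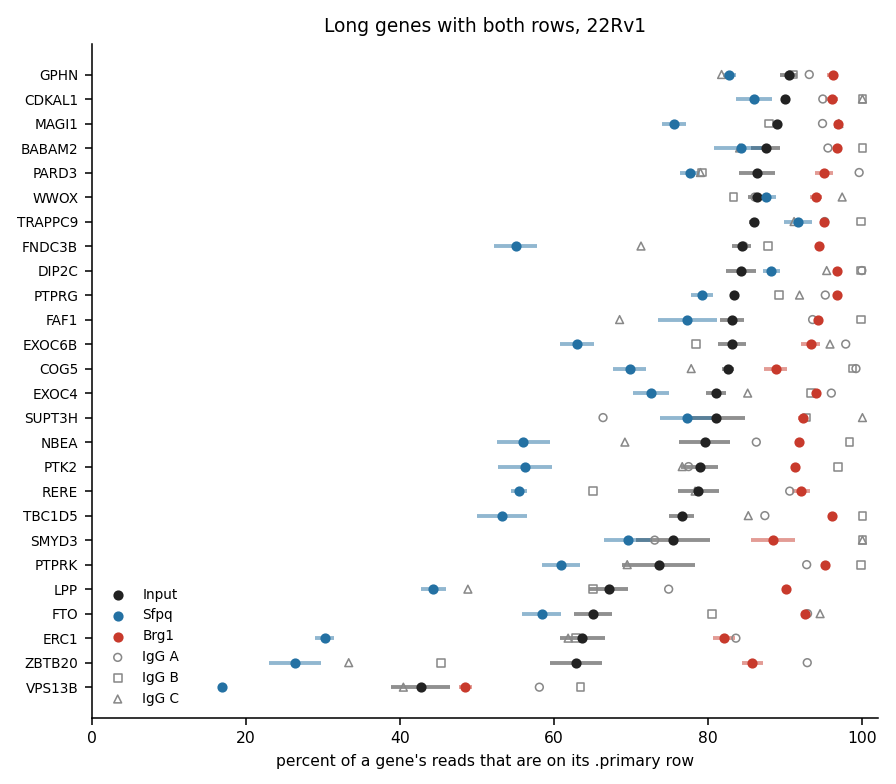
Percent of a gene's reads on its .primary row in 22Rv1 for the 26 listed genes with both rows; filled points are means of the 2 Input, Sfpq or Brg1 libraries, bars join those libraries, and open grey symbols are the 3 IgG libraries. Brg1 lies to the right of Input and Sfpq for every gene, and IgG points fall on either side of Brg1.

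In LNCaP Brg1 also exceeded input in most of the rows, with smaller changes. Of the 28 .primary rows 21 rose over input and 0 fell by limma, where 23.2% of all .primary rows were called higher and 8.25% lower. At an unadjusted p under 0.05 the counts were 24 and 0, edgeR called 24 higher and 0 lower, and DESeq2 25 and 0. The median log2 change was 0.91 against 0.18 for the other rows, 0.73 ± 0.03 apart (SD over the Brg1 libraries, n = 2). For IgG against input in LNCaP the medians were -0.006 and -1.70, 1.70 ± 1.09 apart (SD over the IgG libraries, n = 2). Those IgG libraries are very shallow, and their difference was 0.26 with DESeq2 and -1.63 on the deposited scale. Brg1 was not tested against IgG. Both Brg1 libraries lay above both inputs in 26 of 28 rows, as did 42.0% of all .primary rows. FTO was highest again, with 247 and 291 RPM in Brg1 against 80.4 and 76.1 in input (log2 1.77, SE 0.26, limma adjusted p = 9.70e-10). DIP2C had 465 and 553 against 193 and 161 (log2 1.52), TRAPPC9 837 and 1040 against 392 and 325 (log2 1.38), and SMYD3 (chr1:245749347-246507279) 138 and 159 against 64.6 and 55.4 (log2 1.29). In these 4 genes the Brg1 libraries stood well clear of the inputs. IgG held 451 and 0 for FTO and 631 and 86.4 for DIP2C, so Brg1 and IgG overlapped in both. In TRAPPC9 and SMYD3 both Brg1 libraries lay above both IgG libraries. WWOX held 84.2 and 96.9 in Brg1 and 43.8 and 42.2 in input (log2 1.05, SE 0.25, limma adjusted p = 0.00053). Its IgG libraries held 45.1 and 216, from 1 and 10 reads, and overlapped Brg1.

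The 4 lowest rows were the same in both lines. VPS13B had 58.1 and 86.3 in Brg1 against 79.8 and 59.8 in input (log2 0.04), PTK2 265 and 349 against 297 and 237 (log2 0.20), RERE 740 and 1000 against 728 and 567 (log2 0.42), and ERC1 140 and 176 against 125 and 97.4 (log2 0.50). None of the 4 passed, and in VPS13B and PTK2 the libraries overlapped. EXOC6B, PARD3 and COG5 were the other 3 rows not called, at log2 0.59, 0.62 and 0.58. All 8 rows of the enzymes and others rose, 5 of 7 of adhesion, 4 of 5 of nuclear proteins and 4 of 8 of membrane traffic. Across the 28 genes the log2 changes of the lines had a Spearman's rho of 0.922 and a Pearson's r of 0.911, as a description over genes; the lines share no library. The change was larger in 22Rv1 for all 28. The median of the other .primary rows was also larger there, at 0.52 against 0.18 in LNCaP. Neither the share of other rows with a larger change in 22Rv1 nor their correlation between the lines is given here. The difference between the lines was not tested, and each line had its own fit. Rows called higher in both lines numbered 21 of 28, or 75%, against 22.7% of 9995 other rows.

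Other long genes had like values in LNCaP. The median went from -0.26 under 10 kb to 0.77 at 300 to 1000 kb and 0.84 over 1000 kb among other genes (rho 0.432), and the 610 others over 300 kb had a median of 0.78. Of the second long list 21 of 28 rose, and of 15 compact genes 0 rose and 5 fell, both lists being part of the other .primary rows. The listed genes made up 2.11% and 2.19% of .primary reads in Brg1, 1.67% and 1.63% in input and 1.33% and 1.14% in IgG. Other genes over 300 kb made up 14.8% and 15.1% in Brg1 and 11.6% and 11.5% in input. They made up 14.8% and 17.5% in the shallow IgG libraries. Their mean share was 1.29-fold that of input in Brg1 and 1.40-fold in IgG. Across other rows, rho between span and the change of IgG against input was 0.326. The ratio of .primary to plain reads rose for 8 of 27 genes and fell for 0, where 11.8% of genes were called higher and 1.41% lower by limma. At an unadjusted p under 0.05 the counts were 14 and 0. Without Brg1 library A 9 rose, without Brg1 library B 1 did, and without input A or without input B 0 did. Among plain rows 0 of 32 rose by limma (1 at an unadjusted p under 0.05, 1 by edgeR and 0 by DESeq2), where 2.10% of plain rows were called higher. The 1 that fell, TBC1D5, had 51.4 and 33.5 RPM in Brg1 and 63.8 and 80.3 in input (log2 -0.77), and 20.0% of plain rows were called lower. On the deposited scale 31 of the 32 plain rows fell, and scaled to .primary reads 7 did. WWOX, RAD51B and PTPRG, at log2 0.60, 0.55 and -0.60, did not pass.

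The LNCaP calls are less firm than the medians. The SE of the listed .primary rows ran from 0.25 to 0.28 there, with a median of 0.26. These SEs came from the trend over all rows. They and the limma p-values therefore do not measure the spread of each gene's own libraries. Without input A 4 of the 28 rows passed, without input B 1 did, and with IgG in the fit 0 did (5 at an unadjusted p under 0.05), while the difference of the medians stayed between 0.70 and 0.75 over the libraries left out. Of the other .primary rows the fit with IgG called 0.07% higher and 0.0525% lower. The direction depends on the scale: on the authors' deposited scale, which lowers the median of all rows by 1.38, 0 rose and 8 fell in Brg1 against input, where 0.359% of the other .primary rows rose and 70.7% fell. Scaled to .primary reads 12 rose and 0 fell, against 6.57% and 26.2% of the others.

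IgG in LNCaP was too shallow for most single genes. Its libraries had 197 and 354 reads on all the listed .primary rows together, and 4 and 2 of the rows had 0 reads. A floor of 3 reads stands at 135 and 64.8 RPM, above the mean input level of 13 and 5 of the 28 rows. With limma 5 rows rose and 1 fell, where 5.66% of all .primary rows were called higher and 34.9% lower. The rises were in PTPRK, with 4 and 32 reads in IgG, NBEA, with 7 and 33, ZBTB20, EXOC6B and GPHN. Both IgG libraries lay above both inputs in 8 rows and below them in 5, against 13.5% and 42.4% of all .primary rows. Both Brg1 libraries lay above both IgG libraries in 13 of the 28 rows and below them in 4, against 44.8% and 11.6%. The 1 fall, SUPT3H, had 0 reads in both IgG libraries and 17.9 and 15.2 RPM in input, which is under the floor, so a difference was not detectable at this depth. Without IgG library A 8 rows rose and 8 fell, and without IgG library B 12 rose and 9 fell. Without input A 2 rose and 1 fell, and without input B 1 rose and 1 fell. With TMM factors 0 of the 28 rose and 5 fell, and on the deposited scale all 28 fell, so the direction in this line turns with the scale. Of 32 plain rows 0 rose by limma (1 at an unadjusted p under 0.05, 0 by edgeR and 1 by DESeq2) and 10 fell, where 0.439% of plain rows were called higher and 53.6% lower. PTK2 and FAF1 had the lowest fitted values, with 0 reads in both IgG libraries and input levels of 57.6 and 56.7 and of 39.6 and 40.9 RPM, under the floor. ATXN1, with 1 and 8 reads, and MAGI1, with 3 and 4, had the highest and did not pass.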

How the data were processed

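RNA was sequenced in 15 RIP-seq libraries of 22Rv1 and LNCaP cells, fixed per the labels in 0.3% HCHO for 30 min. The deposited values are a signal, normalized counts, in 1 table per line that the authors scaled on its own; how the factors were set is not given in the sources used here. The submitters' processing notes name hg38, STAR 2.6, Salmon 0.8.2, deepTools 2.5.2 and DESeq2, with no role. Each column was divided by its smallest positive value, and 100% of the deposited values came out as whole reads within 0.001. Spans are from RefSeq GRCh38.p14, where 12851 of 14296 genes matched in 22Rv1 and 12585 of 14176 in LNCaP.

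The main test was limma 3.58.1 in R 4.3.3 (trended eBayes, two-sided) on log2(reads per 1000000 of the library total + 1), for rows with a mean of at least 10 reads, with Benjamini-Hochberg adjustment over all tested rows and a threshold of 0.05. This scale understates changes of low rows. Brg1, Sfpq and Input of 22Rv1 shared 1 fit, Brg1 and Input of LNCaP another, and IgG contrasts used all groups of a line. In the first fit the pooled spread weighed 12.7 prior against 3 residual degrees of freedom. In the LNCaP Brg1 fit the prior was infinite against 2 residual, so a row's own spread did not count. Ratios of .primary to plain reads were tested by limma on log2 with 0.5 reads added to each. Alternatives were other scalings, pseudocounts and filters, eBayes without trend, the replicate letter as a block, each library left out, and, on the recovered reads, edgeR 4.0.16 and DESeq2 1.42.0. Among the other .primary rows edgeR called 7078 higher and 515 lower for Brg1 against Input in 22Rv1, and 3247 and 735 in LNCaP. The fits were also run on simulated reads with the same relative spread in every row and no shift common to .primary rows. Those settings differ from these data, so that run does not bear on the p-values given here. Tables and figures used Python 3.11.15, numpy 2.4.6, pandas 2.3.3, scipy 1.17.1 and matplotlib 3.10.9.

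Rows to be named were the 4 .primary rows with the largest log2 change each way per comparison, 2 plain rows each way, and FHIT and WWOX. Values by library are given for only some of these. Others have only a log2 change or are left out of a comparison. The members and lists were chosen with earlier results of these data known. Wilson intervals and the floor of 3 reads cover counting error only.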

Additional observations from a re-analysis of the deposited data

Results flagged for a closer look

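Plain rows of 4 listed genes had Brg1 on opposite sides of input in the 2 lines, with both Brg1 libraries below both inputs in 22Rv1 and above them in LNCaP. These are 4 of the 30 listed plain rows in both tables, against 813 of all 9377 such rows (8.67%), so the pattern is not particular to the listed genes. The log2 change was -0.13 in 22Rv1 and 0.19 in LNCaP for EXOC4, -0.49 and 0.15 for FTO, -0.23 and 0.30 for FNDC3B, and -0.43 and 0.21 for BABAM2. By limma none of the 4 passed in LNCaP (adjusted p from 0.406 to 0.687), and in 22Rv1 only FTO did (adjusted p = 0.00736). On the deposited scale 31 of the 32 plain rows in LNCaP were lower in Brg1. The difference between the lines was not tested, and each line had its own fit.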

How the results depend on the processing

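Of the counts and median differences recomputed, 224 kept their direction and side of the threshold, 26 were weaker, 7 stronger, 14 moved and 8 reversed; for values of single genes the numbers were 1185 kept, 126 weaker, 48 stronger and 22 reversed. The cause of each change below was not tested. With all groups of a line in 1 limma fit, the listed .primary rows called numbered 0 for Brg1 against Input in 22Rv1, 0 for Sfpq against Input, 7 for Brg1 against Sfpq and 0 for LNCaP, and the ratio gave 0 in all 4. Few of the other .primary rows were called in those fits either, with 2.73% higher for Brg1 against Sfpq the largest share. On the deposited values the counts were 13, 3 and, in LNCaP, 8 (all lower) for antibodies against Input, and 28 lower for IgG in each line. Scaled to .primary reads they were 8 for Sfpq (5 higher, 3 lower), 12 for LNCaP Brg1 and 8 for LNCaP IgG (3 higher, 5 lower). LNCaP IgG had 5 with TMM, 5 with median-of-ratios factors and 2 with edgeR. 22Rv1 IgG had 0 with only the 2 groups compared, 0 without trend and 5 with DESeq2.

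The difference of the medians was 0.99 with a pseudocount of 5 and 0.88 scaled to .primary reads for Brg1 in 22Rv1, and 0.21 with a pseudocount of 5 for Sfpq. For Brg1 against Sfpq it was 0.57 with a pseudocount of 0.1, on deposited values, on .primary reads, with edgeR and with DESeq2, and 0.87 with a pseudocount of 5. For 22Rv1 IgG it was 0.54 on deposited values, 0.76 with edgeR and 0.80 with DESeq2. For LNCaP IgG it was 1.70 in the main fit, 3.30 with a pseudocount of 0.1, -1.63 on deposited values and 0.26 with DESeq2.

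With 1 library left out, rows called ranged from 26 to 27 and the difference from 0.90 to 0.98 for Brg1 in 22Rv1, 5 to 15 and 0.24 to 0.37 for Sfpq, 27 to 28 and 0.60 to 0.67 for Brg1 against Sfpq, and 1 to 25 and 0.70 to 0.75 for LNCaP Brg1. For IgG they ranged from 0 to 16 and 1.02 to 1.62 in 22Rv1 and from 2 to 21 and 1.42 to 2.97 in LNCaP. Ratio counts ranged from 23 to 25, 14 to 19, 25 to 26 and, in LNCaP, 0 to 9.

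Replicate letters did not pair the libraries: same-letter correlations of deviations were -0.057, 0.015 and -0.146 in 22Rv1 and -0.354 in LNCaP. With the letter as a replicate block, 3 rows and 0 ratios passed in LNCaP and 15 rows for 22Rv1 IgG. With the letters crossed in LNCaP, an alternative chosen after seeing the data, 26 rows and 23 ratios passed.

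Single genes changed sign as follows. Scaled to .primary reads, plain MAGI2 was -0.10 for Brg1 against Input in 22Rv1, and plain RAD51B -0.041 and WWOX -0.73 for Brg1 against Sfpq. On deposited values, LNCaP Brg1 gave plain RAD51B -0.77 and .primary SMYD3 -0.067 and WWOX -0.31. There 22Rv1 IgG gave plain ATXN1 -6.26 and MAGI2 -5.96 and .primary BABAM2 -6.66, DIP2C -6.08, IMMP2L -6.57, TBC1D5 -6.53 and WWOX -7.10. LNCaP IgG gave plain ATXN1 -8.22 and MAGI1 -8.95 and .primary EXOC6B -8.90, NBEA -7.98, PTPRK -6.78, WWOX -8.91 and ZBTB20 -8.42. With 1 library left out, LNCaP IgG ranged from -6.80 (without IgG B) to 1.88 (without IgG A) for .primary ERC1 and from -5.93 to 0.84 for SMYD3. Depth limits the LNCaP IgG comparison, with 22184 and 46297 reads.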
